A study of Homo sapiens with 2 samples.

Results

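Natural antisense transcripts are RNAs read from the DNA strand opposite to a gene, and most of them are long noncoding RNAs. Some start next to the promoter of the sense gene and run away from it, and others overlap the sense transcript head to head, tail to tail or from within an intron. Individual antisense RNAs are known to act on the sense gene in cis, through chromatin or through pairing with its transcript, while many others are short-lived by-products of open promoters. On the array analysed here, antisense genes were taken as the genes whose only symbol in the platform's annotation ends in -AS, with or without a number. Of 792 such genes, 280 had a mean of the signals of both arrays at or above 183, which is the median level of all probe sets that are not controls. These 280 genes are described here, each by the probe set with its highest mean signal. The members were thus selected on their mean signal over both arrays, so the level of a member is not a finding.

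The arrays came from HEK293T, a human embryonic kidney cell line carrying the large T antigen of simian virus. Cells were transfected with polyethylenimine and either pcDNA3.1-GFP, a plasmid for the green fluorescent protein alone (GFP control), or pcDNA3.1-IRX1::GFP, a plasmid for the homeodomain transcription factor IRX1 fused to GFP. GFP-positive cells were sorted 48 h later, so that both groups had been transfected and sorted, and the groups differed in the IRX1 part of the plasmid. The comparison asks which transcripts differ when IRX1 is overexpressed for this time. Each condition is held by 1 array of 54675 probe sets with no replicate. The values below therefore carry no SD and no p-value, and their precision is limited by the number of arrays.

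The deposited signals were linear MAS5 intensities, scaled by the authors so that the trimmed mean of either array was 1000. The log2 ratio given throughout is IRX1::GFP over GFP control, and differences of 2-fold and above were called. Different probe sets of 1 gene had log2 ratios with an SD of 0.49 over 5933 genes, which leaves out differences between cultures. Of 51 antisense genes with several probe sets past the level, 31 had ratios of 1 sign and 15 had ratios more than 1 log2 unit apart, with an SD of 0.52. The background level was set by 107 probe sets of olfactory receptors, genes used mainly by smell neurons. Their 90th percentile was 143 for GFP alone and 179 for IRX1::GFP, and where 1 of the signals did not exceed it, the fold is printed as "at least". As a sign of RNA integrity, the ratio of 3′ to 5′ probe sets of ACTB was 3.23 on the control array and 1.64 on the IRX1::GFP array. The part of this difference in the results was not tested. The only probe set named for IRX1 read 33.1 and 57, under background on both arrays, and whether it lies in the transfected cDNA is not known. Of 9 markers listed for HEK293T, 8 reached the level, from VIM at 38213 and 28168 and NEFM at 4292 and 8206 down to PAX2 at 134 and 278. Of 8 markers of other cells, 3 reached the level, CD3E at 244 and 168, PECAM1 at 178 and 203, and CD14 at 327 and 856, while the blood marker PTPRC and the endothelial marker CDH5 were under background on both arrays. COL1A2 (175 and 169), DCN (184 and 117) and ALB (219 and 135) did not reach the level but were above background in the GFP control. The part of cells expressing such markers in the results was not tested. In a bulk sample of this kind, a lower signal from fewer expressing cells and one from less RNA per cell cannot be told apart.

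Antisense genes differed between the conditions about as often as all genes did. With IRX1::GFP, 40 of the 280 were at least 2-fold higher (14.3%), where 10.4% of all 12197 genes at the same level were. In the other direction 16 were at least 2-fold lower (5.71%), against 5.34% of all genes, and 224 lay within 2-fold. At 4-fold, 4 antisense genes were higher and 3 lower, beside 1.6% and 0.533% of all genes. With the background level in place of a signal under it, 2 of these 4 (TNFRSF14-AS1 and ZNF252P-AS1) and all 3 lower genes stayed past 4-fold. The probe sets of both these higher genes have a name suffix for shared probes and may also read other transcripts. The median log2 ratio was 0.17, with 159 genes above 0 and 121 below, and the median of all genes was 0.07. The measured ratios ran from -2.36 for TRAF3IP2-AS1 to 3.61 for MNX1-AS1, whose control signal was under background, and among genes above background on both arrays up to 2.24 for ZNF252P-AS1. Other long noncoding RNA genes (LINC, SNHG and microRNA host genes, and genes ending in -DT, -IT or -OT) are given for comparison, with 41 of 238 higher (17.2%), 13 lower (5.46%) and a median of 0.18.

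**Figure D1:**
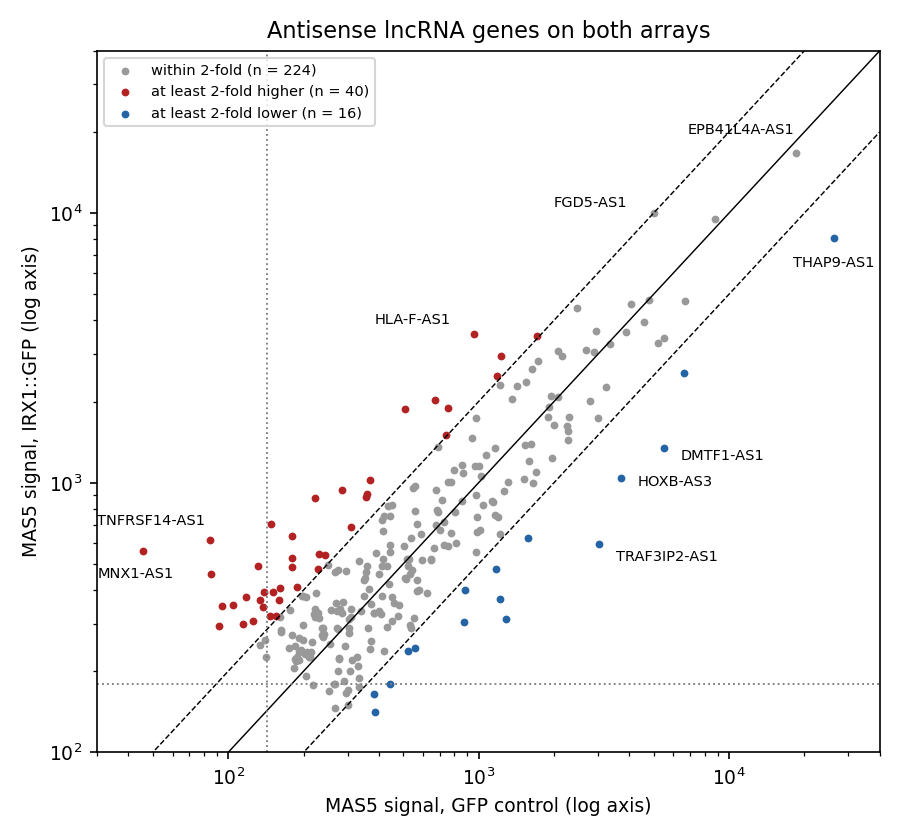
MAS5 signal of each of the 280 antisense genes in the GFP control (x axis, log scale) against IRX1::GFP (y axis, log scale), 1 point per gene and 1 array per condition. The solid line marks equal signals, the dashed lines 2-fold and the dotted lines the background of either array. Of the 40 genes called higher, 13 lie left of the control background, and the 16 called lower reach up to THAP9-AS1 at 26319 in the GFP control.

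The mean signal that selected the members had a median of 457 over all 280, of 351 over the 40 higher genes and of 800 over the 16 lower ones, which is given as a description only. Of the higher genes, 13 had a control signal that was not above background, while 14 of the 16 lower genes were above background on both arrays. All 40 and all 16 kept a difference of at least 2-fold when the background level took the place of a signal under it. For the 13 higher genes this is a weak check, because the selection on mean signal bears on its outcome. A member with a dim control signal could reach the level only through a high IRX1::GFP signal. With signals under the median level of all probe sets raised to that level, 32 of the 40 and all 16 stayed past 2-fold. The median of the mean signals was 1919 for the sense partners of the antisense genes and 1519 for all genes. Signals of different probe sets do not, however, give relative amounts of RNA.

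Since dim genes were called higher more often than bright ones, and lower about as often, the shares were also set beside all genes of like signal. Between 1 and 2 times the level, 22 of 110 antisense genes were higher (20%), where 18.2% of all genes in that range were. The lower share there was 2.73%, from 3 genes, against 5.69%. From 2 to 8 times the level, 14 of 124 were higher (11.3%, all genes 13.7%) and 8 were lower (6.45%, all genes 4.9%). Over 8 times the level, 4 of 46 were higher (8.7%, all genes 5.72%) and 5 were lower (10.9%, all genes 5.51%). The higher share of antisense genes thus lay close to that of all genes in the dimmest range, and in the brightest range it rests on 4 genes.

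**Figure D2:**
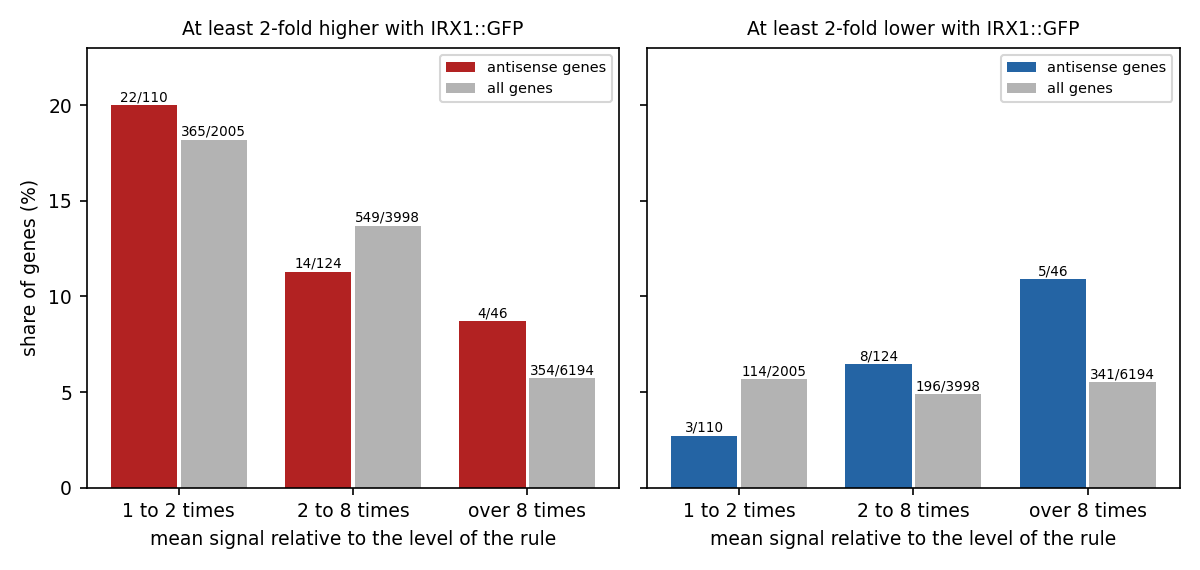
Share of genes (y axis, %) at least 2-fold higher (left) or lower (right) with IRX1::GFP, by range of mean signal relative to the level of 183 (x axis), for antisense genes (coloured bars) and all genes (grey bars), with the number called and the number in the range over each bar. The share of higher genes was 20% in the dimmest and 8.7% in the brightest range for antisense genes, and 18.2% and 5.72% for all genes.

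MNX1-AS1 had the largest measured ratio, but with its bound it cannot be ranked above TNFRSF14-AS1, ZNF252P-AS1 or RUNDC3A-AS1. It lies beside MNX1, a homeobox gene of motor neuron and pancreas development, and went from 45.9 in the GFP control, under background, to 559 with IRX1::GFP, at least 3.90-fold. MNX1 itself went from 1211 to 2740 (log2 ratio 1.18), so both genes of this pair were past 2-fold, from a control signal that was dim for the antisense gene and well above background for the homeobox gene. TNFRSF14-AS1 went from 84.4 to 616, at least 4.30-fold, and HYI-AS1 from 85.7 to 458, at least 3.19-fold. TNFRSF14, a receptor of the tumour necrosis factor family, stayed under the level at 63.9 and 169, and HYI read 568 and 1015 (0.84). The other 2 probe sets of TNFRSF14-AS1 were under background on both arrays, so that this call rests on 1 of 3 probe sets, one that may read shared sequence.

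Antisense genes that were above background on both arrays give folds rather than bounds. ZNF252P-AS1 went from 149 to 702 (4.72-fold), just above background in the control, and RUNDC3A-AS1 from 222 to 875 (3.94-fold). The only probe set of ZNF252P-AS1 has a name suffix for shared probes. The zinc finger pseudogene ZNF252P read 829 and 769, within 2-fold, whereas RUNDC3A went from 159 to 356 (1.17). HLA-F-AS1, in the major histocompatibility complex opposite the class I gene HLA-F, was the brightest of the 12 highest, at 961 and 3551 (3.69-fold). HLA-F went from 2647 to 4574, a log2 ratio of 0.79 that did not reach 2-fold. TSPOAP1-AS1 went from 508 to 1873 (3.69-fold), and its second probe set, from 422 to 1418, gave a log2 ratio of 1.75 against 1.88 for the first. The gap between these ratios was smaller than the SD of 0.49 given above.

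The rest of the 12 highest were PARD6G-AS1 (131 and 490, at least 3.42-fold), FNDC1-AS1 (94.3 and 348, at least 2.43-fold), MORC2-AS1 (180 and 632, 3.51-fold), MCPH1-AS1 (105 and 352, at least 2.46-fold) and SLC9A3-AS1 (285 and 942, 3.31-fold). They were dim in the control, 3 of them under background. A second probe set of PARD6G-AS1, under the level, read 145 and 209 (0.52), and the mean log2 ratio over both was 1.21. MORC2, an ATPase that takes part in silencing of retroelements, read 6630 and 8774 (0.40), so its own signal lay within 2-fold. The other 28 higher genes had log2 ratios from 1.02 upward. In all, 22 of the 40 rest on the only probe set of the gene.

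**Figure D3:**
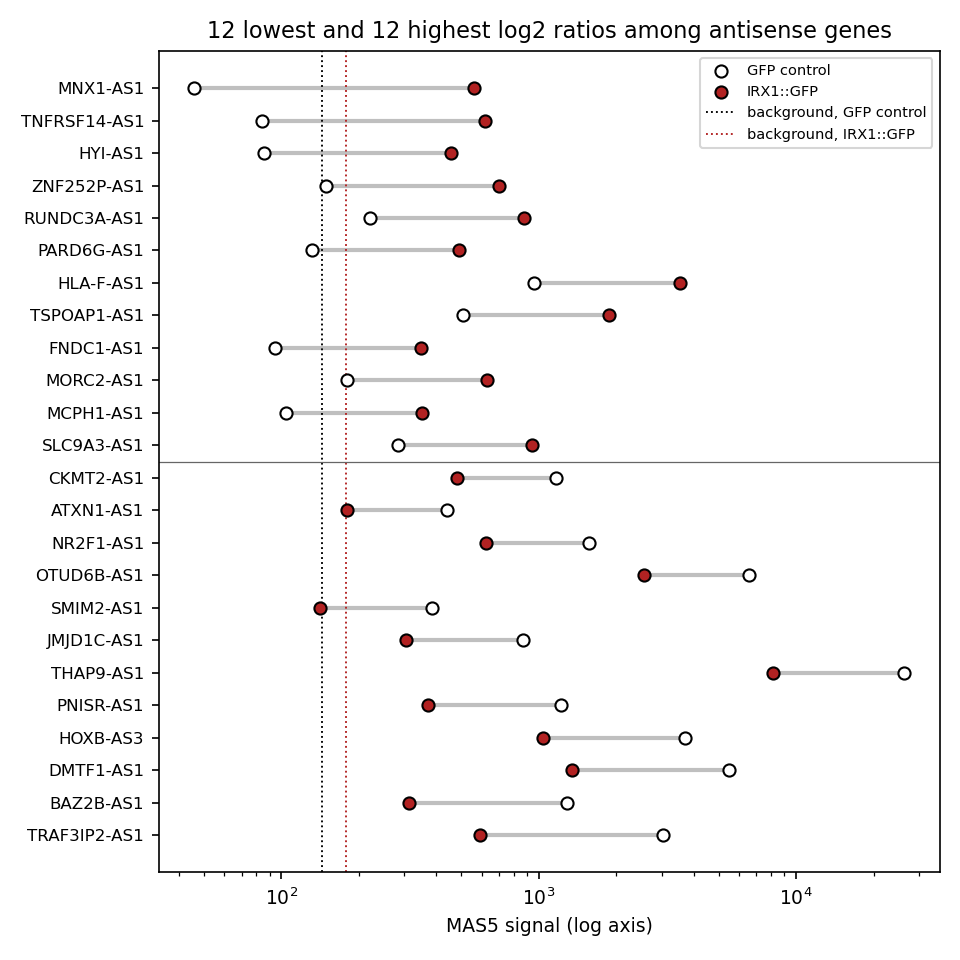
MAS5 signal (x axis, log scale) on both arrays of the 12 antisense genes with the highest and the 12 with the lowest log2 ratio (rows), 1 array per condition. Apart from HLA-F-AS1 and TSPOAP1-AS1, the 12 highest start from control signals of 285 or less, and apart from SMIM2-AS1 and ATXN1-AS1, the 12 lowest start from 872 or more.

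The antisense genes with a lower signal were led by TRAF3IP2-AS1, which lies opposite the gene of an adaptor of interleukin 17 signalling. It went from 3037 to 592 (5.13-fold lower), while TRAF3IP2 read 392 and 526 (0.42). A second probe set of TRAF3IP2-AS1 went from 670 to 359 (-0.90), and 3 dim ones did not reach the level, so the size of its difference depends on the probe set, and as a mean over all its probe sets (-0.56) it would not be called. BAZ2B-AS1 went from 1292 to 312 (4.14-fold lower) and DMTF1-AS1 from 5491 to 1349 (4.07-fold lower). DMTF1, a transcription factor that activates the ARF tumour suppressor gene, went from 7120 to 4365, which did not reach 2-fold (-0.71).

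THAP9-AS1 had the highest control signal of all 280 genes. It went from 26319 to 8104 (3.25-fold lower), and THAP9, a gene derived from a DNA transposase, went from 2255 to 981 (-1.20). The only probe set of THAP9-AS1 has a name suffix for shared probes, so it may also read other transcripts. OTUD6B-AS1 went from 6586 to 2562 (2.57-fold lower), and its second probe set from 1733 to 1391 (-0.32). Its probe sets thus differed by more than the SD of 0.49, their mean of -0.84 would not be called, and OTUD6B, a deubiquitinase gene, lay within 2-fold. CKMT2-AS1 went from 1170 to 480 (2.44-fold lower) and on a second probe set from 839 to 495 (-0.76). The sense gene CKMT2, a mitochondrial creatine kinase of muscle, was under background on both arrays, at 23.5 and 115. NR2F1-AS1 went from 1571 to 625 (2.51-fold lower), and NR2F1, an orphan nuclear receptor of neural development, from 4434 to 1475 (-1.59). Both genes of this pair were above background on both arrays.

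Of the others among the 12 lowest, PNISR-AS1 went from 1223 to 372 (3.29-fold lower), JMJD1C-AS1 from 872 to 306 (2.85-fold lower) and ATXN1-AS1 from 441 to 179 (2.46-fold lower, though not called as a mean over its probe sets, -0.53). That last signal of ATXN1-AS1 was just above background, and its second probe set, at 37.1 and 44.1, was under background on both arrays. SMIM2-AS1, at 386 and 142, was not above background with IRX1::GFP and was at least 2.16-fold lower. The 4 lower genes outside these 12 were LOXL2-AS1 (381 and 165), MBNL1-AS1 (555 and 243), SLC16A1-AS1 (884 and 399) and CLCA4-AS1 (522 and 238), with log2 ratios of -1.19 to -1.13 for the last 3. LOXL2-AS1 was under background with IRX1::GFP and thus at least 2.13-fold lower. A second probe set of MBNL1-AS1, at 308 and 133, was also under background with IRX1::GFP, at least 1.73-fold lower. Other probe sets of SLC16A1-AS1, above background on both arrays, read 680 and 565 (-0.27) and 701 and 419 (-0.74). The call of SLC16A1-AS1 thus depends on the probe set. Of the 16 lower genes, 7 rest on the only probe set of the gene.

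The HOX clusters encode homeodomain factors of body patterning and hold several antisense genes. Of 7 listed on the array, 6 reached the level, and HOXB-AS3 was the only one of them past 2-fold. It went from 3708 to 1043 (3.56-fold lower), and its 5 probe sets past the level all had lower signals with IRX1::GFP, with log2 ratios of -0.42, -0.90, -1.83, -1.90 and -2.39, the last with a signal under background on the IRX1::GFP array. The coding genes it overlaps lay within 2-fold, HOXB6 at 3969 and 3309 (-0.26) and HOXB5 at 849 and 1135 (0.42). HOXB-AS1, which overlaps HOXB2 and HOXB3, read 509 and 444. HOXA11-AS read 350 and 382, HOXA-AS2 213 and 226, HOXA-AS3 371 and 258, and HOXD-AS2 444 and 555, all within 2-fold. A second probe set of HOXA11-AS was under background on both arrays, and as a mean over both probe sets HOXA11-AS would be called higher, at 1.48.

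The 8 brightest antisense genes ran from near-equal signals on both arrays to differences past 2-fold. EPB41L4A-AS1 read 18443 and 16705 (-0.14), MAPKAPK5-AS1 8764 and 9491 (0.11) and ZNF143-AS1 4774 and 4764. FGD5-AS1, at 5017 and 9997, lay at 1.99-fold, just within the limit, and was past it with quantile normalization (log2 ratio 1.03), with loess (1.03) and as a mean over its probe sets (1.02). ZNF687-AS1 read 6671 and 4733 (-0.50) and WAC-AS1 5518 and 3434 (-0.68), and THAP9-AS1 and OTUD6B-AS1 were the 2 of these 8 past 2-fold, both lower. At the other end of the range, the genes just inside the level were STK24-AS1 (142 and 225, mean 184), TMEM254-AS1 (133 and 251, mean 192) and PIK3CD-AS2 (91.8 and 295, mean 194). Just outside were ZMIZ1-AS1 (130 and 233, mean 182), TSPAN16-AS1 (117 and 245, mean 181) and SOCS2-AS1 (148 and 211, mean 180).

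Sense partners were the genes with the antisense symbol less its ending. They reached the level for 220 of the 280 antisense genes, were under it for 38 and were not matched for 22. The 220 pairs hold 219 sense genes, as PTOV1-AS1 (368 and 1020) and PTOV1-AS2 (139 and 394), both higher, share PTOV1, which read 1586 and 1524. Among the 219 sense genes, 20 were higher (9.13%, all genes 10.4%) and 22 lower (10%, all genes 5.34%), with a median log2 ratio of -0.06 (all genes 0.07). As a mean over probe sets, 16 were lower (all genes 4.61%) and the median was 0.04 (all genes 0.10). Both genes changed 2-fold or more in 15 pairs, 8 with both higher and 7 with both lower. With signals under the median level of all probe sets raised to it, 11 pairs changed in the same direction. No pair changed 2-fold in opposite directions, but 2 did with median centring of the ratios and 1 with loess. With no filter, 32 of 729 pairs did, beside 59 in the same direction. The antisense genes of the higher pairs of MNX1, FNDC1, PIK3CD and PPP1R14B were under background in the control. They could reach the level only through a high IRX1::GFP signal, so the selection bears on the count of 8 and on the correlations below. In 151 pairs both genes lay within 2-fold. Across the 220 pairs the log2 ratios of antisense and sense genes had a Spearman rho of 0.35 and a Pearson r of 0.39, a description of pairs that share the same 2 arrays.

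The probes' own sequences were not used here, so which strand a probe set reads was not checked, and for overlapping genes a probe set of one may also pick up the other. Each pair is therefore given as the values of 2 named probe sets.

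**Figure D4:**
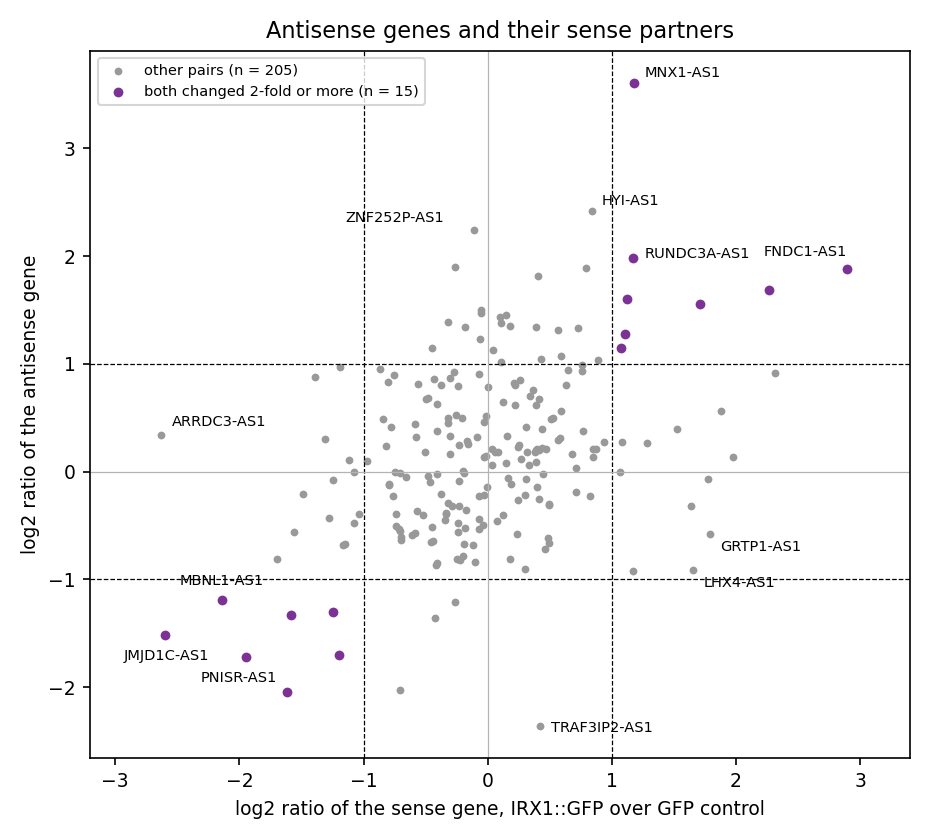
Log2 ratio, IRX1::GFP over GFP control, of the sense gene (x axis) against that of its antisense gene (y axis) for 220 pairs, each from the same 2 arrays. Ratios are as measured, also where 1 signal was under background. Dashed lines mark 2-fold. The 15 pairs in which both changed 2-fold or more lie in the upper right (8) and lower left (7) corners, and the other corners are empty.

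The pairs were counted from either side. Of 11 lower antisense genes with a sense partner at the level, 7 had a partner that was also at least 2-fold lower and 10 had one with a ratio below 0, and the median log2 ratio of these partners was -1.24. Of 31 higher antisense genes, 8 had a partner at least 2-fold higher and 23 had one above 0, with a median of 0.40. These counts were not tested against each other. Read from the sense side, 7 of 22 lower sense genes and 8 of 20 higher ones had an antisense gene past 2-fold in the same direction, and the others had an antisense gene within 2-fold.

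Among pairs with both lower, JMJD1C, a histone demethylase gene of the jumonji family, went from 5596 to 923 (-2.60) beside -1.51 for its antisense gene. MBNL1, a splicing regulator, went from 5649 to 1278 (-2.14) beside -1.19, and PNISR, a splicing-associated protein gene, from 5494 to 1427 (-1.95) beside -1.72. In all 3 of these pairs the ratio of the sense gene was the more negative one. BAZ2B, a bromodomain gene, went from 827 to 270 (-1.61) beside -2.05, and ATXN1, the gene of spinocerebellar ataxia type 1, from 752 to 318 (-1.24) beside -1.30. The pairs of THAP9 and NR2F1, given above, complete the 7.

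Several pairs with both higher started near or under background. FNDC1 went from 62.2, under background, to 462 (at least 3.22-fold), and PIK3CD, the catalytic delta subunit of phosphoinositide 3-kinase, from 133, also under background, to 639 (at least 4.46-fold). Their antisense genes FNDC1-AS1 and PIK3CD-AS2 (91.8 and 295, at least 2.06-fold) were under background in the control as well. LOXL1, a lysyl oxidase of elastic fibres, went from 148 to 485 (1.71), beside LOXL1-AS1 from 180 to 528 (1.55). ZNF436 went from 918 to 1999 (1.12), beside ZNF436-AS1 from 667 to 2022 (1.60). MELTF, the gene of melanotransferrin, went from 354 to 744 (1.07), beside MELTF-AS1 from 244 to 540 (1.15, but 0.39 as a mean over its probe sets and 0.99 with quantile normalization). These 3 pairs were above background throughout. PPP1R14B, a regulator of protein phosphatase 1, went from 2179 to 4698 (1.11), while PPP1R14B-AS1 went from 126 to 306, at least 2.13-fold. The pairs of MNX1 and RUNDC3A complete the 8.

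In other pairs the genes parted. The largest difference was at ARRDC3, an arrestin-domain gene, which went from 8028 to 1297 (-2.63) while ARRDC3-AS1 read 351 and 445 (0.34). LHX4, a LIM homeobox gene of pituitary development, went from 146, just above background, to 459 (1.65). LHX4-AS1 went from 1218 to 646 (-0.92, and past 2-fold with median centring, -1.02). GRTP1 went from 721 to 2495 (1.79), and GRTP1-AS1 from 267 to 179 (-0.58). That last signal was just above background, and the mean log2 ratio over the probe sets of GRTP1-AS1 was -0.07. In these 3 pairs the sense gene passed 2-fold and the antisense gene did not. At TRAF3IP2 and ZNF252P it was the antisense gene that passed 2-fold and the sense gene that did not. By measured ratios the MNX1 pair, with a difference of -2.43 (sense minus antisense), was also among the 6 that differed most, but with the background level in place of the control signal of MNX1-AS1 its difference was -0.79 and it was not.

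The layout of the pairs was taken from the gene starts in a set of RefSeq promoters (GRCh38.p14), with a limit of 1000 bases between gene starts. By this limit 36 pairs had divergent starts (head to head without overlap), 44 had starts within the limit that overlapped and 73 had starts farther apart. The other 67 were not placed, because the set lacked a promoter for at least 1 gene of the pair. Both genes changed 2-fold in 1 of 36 divergent pairs, in 4 of 44 overlapping ones, in 6 of 73 with starts farther apart and in 4 of 67 not placed. Spearman's rho across pairs was 0.30, 0.43, 0.35 and 0.26 in this order. Of the 36 antisense genes of divergent pairs, 33 lay within 2-fold, as did 224 of all 280. Among the 36, 3 were higher (8.33%, all genes 10.4%) and none lower (all genes 5.34%). Of their sense genes, 2 were higher (5.56%) and 4 lower (11.1%).

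Divergent pairs share 1 stretch of promoter DNA, and 3 of those stretches are shown, from the pair with both genes higher and from both divergent pairs among the named genes with a lower sense gene and an antisense gene within 2-fold. WAC, the adaptor of histone H2B ubiquitination, went from 19458 to 8684 (-1.16) while WAC-AS1 read 5518 and 3434. ZNF143, a zinc finger activator that binds at promoters and loop anchors, went from 6349 to 3008 (-1.08) while ZNF143-AS1 read 4774 and 4764. Each stretch, from RefSeq (GRCh38.p14), is read 5′ to 3′ on the strand of the antisense gene, ends 50 bases past its RefSeq start, and begins at the base beside the start of the sense gene or 250 bases upstream. Capitals mark the CCAAT box (CCAAT or ATTGG on the other strand) and the GC box (GGGCGG or CCGCCC). The MNX1-AS1 stretch is chr7:157010663-157010906 (+), with 194 bases between both starts, WAC-AS1 is chr10:28532305-28532604 (-), with 425 bases between the starts, and ZNF143-AS1 is chr11:9460649-9460948 (-), with 314 bases between them.
MNX1-AS1: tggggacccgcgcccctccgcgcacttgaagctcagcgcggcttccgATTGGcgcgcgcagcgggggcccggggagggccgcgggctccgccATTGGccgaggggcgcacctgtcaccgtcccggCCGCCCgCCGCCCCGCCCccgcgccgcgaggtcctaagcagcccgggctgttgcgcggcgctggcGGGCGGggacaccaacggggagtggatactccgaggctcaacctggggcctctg
WAC-AS1: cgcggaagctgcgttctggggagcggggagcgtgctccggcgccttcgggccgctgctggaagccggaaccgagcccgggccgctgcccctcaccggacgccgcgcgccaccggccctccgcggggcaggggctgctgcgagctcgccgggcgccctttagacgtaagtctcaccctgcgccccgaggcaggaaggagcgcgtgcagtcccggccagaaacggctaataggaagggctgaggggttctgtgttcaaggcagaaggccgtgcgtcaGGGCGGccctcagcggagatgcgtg
ZNF143-AS1: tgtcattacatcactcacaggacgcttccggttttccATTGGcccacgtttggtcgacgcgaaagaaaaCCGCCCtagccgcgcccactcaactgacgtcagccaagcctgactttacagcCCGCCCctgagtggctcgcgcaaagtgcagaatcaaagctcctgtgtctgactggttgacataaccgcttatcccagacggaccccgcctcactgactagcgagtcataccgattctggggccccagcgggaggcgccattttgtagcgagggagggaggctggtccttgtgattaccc

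The MNX1-AS1 stretch held 4 GC boxes, 2 of which share 1 base, and 2 CCAAT boxes, at a GC content of 77.9%. The WAC-AS1 stretch held 1 GC box and no CCAAT box, at 72.3%, and the ZNF143-AS1 stretch 2 GC boxes and 1 CCAAT box, at 58%. None of the 3 held TATAAA or ACANNTGT, the palindrome bound by Iroquois proteins, the family of IRX1, where N is any base. RefSeq promoters, from 250 bases before to 50 after the start, were matched for 219 of the 280 antisense genes. On either strand ACANNTGT stood in 6 of the 219 (2.74%), against 5.6% of all 27305 promoters of the same length. It stood in 1 of 22 promoters of higher and 0 of 9 promoters of lower antisense genes. Unlike the 219, the 27305 promoters were not filtered by signal. GGGCGG stood in 57.1% of the 219 and 44.6% of all, CCAAT in 32% and 35.7%, and TATAAA in 5.02% and 12%. The median GC content was 63.7% for the antisense genes and 58.3% for all promoters. Such a match is a string in a window and does not show a bound site.

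Genes that process and degrade antisense and other nuclear noncoding RNA, or that act on double-stranded RNA, were counted as a list of 30, of which 28 were analysed and all 28 reached the level. None was 2-fold higher and 2 were 2-fold lower (7.14%, all genes 5.34%, and 5.51% of all genes over 8 times the level). These were EXOSC9, a ring subunit of the RNA exosome, from 12569 to 5199 (-1.27), and ZCCHC8, the scaffold of the complex that brings nuclear RNA to the exosome, from 13170 to 6141 (-1.10). The median log2 ratio was -0.37, against 0.07 for all genes and -0.05 for all genes over 8 times the level, with 20 genes below 0 and 8 above. The highest were PABPN1, the nuclear poly(A) binding protein, at 0.66, and EXOSC5 at 0.62. DICER1, DROSHA and the 4 Argonaute genes lay within 2-fold. Other exosome genes within 2-fold ran from EXOSC8 at -0.81 to EXOSC5 at 0.62.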

How the data were processed

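The authors deposited linear MAS5 intensities of 2 HG-U133 Plus 2.0 arrays, each scaled on its own. The tool is taken from the processing notes of the submitters, and its version is not given in the sources used here. Each condition had 1 array, and whether it is a pool or 1 of several replicates was not settled. Of 54675 probe sets, 41097 had 1 symbol in the platform annotation, 1801 had several and 11777 were unnamed, 62 array controls among them. RefSeq (GRCh38.p14) held 279 of the 280 members by gene identifier.

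The log2 ratio of the deposited signals was taken per gene, on its probe set of highest mean signal, above a level set at the 50th percentile, and called at 2-fold and 4-fold, the study's limits. No test between conditions was possible. Named were the 12 highest, 12 lowest and 8 brightest antisense genes, those of the HOX clusters, pairs with both genes changed, the 6 pairs that differed most, the 3 genes on either side of the level, and sense partners. Genes named beyond this rule (the other 4 lower genes, both PTOV1 antisense genes) and the promoter analysis were added with the values in view. The members and lists were chosen with earlier results of these data known. The lists were HEK293T markers, other cell markers, RNA surveillance and double-stranded RNA genes, and other long noncoding RNA genes.

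Alternatives were median centring, quantile normalization, loess (span 0.3), no filter, a 75th percentile filter, a filter requiring 1 signal over the olfactory receptor background, raising signals under the 50th percentile to it (floor), the mean over probe sets, only probe sets whose name has no suffix for shared probes, and symbols updated through RefSeq. The steps were tested on simulated data. Software was Python 3.11.15 with pandas 2.3.3, numpy 2.4.6, statsmodels 0.14.6, scipy 1.17.1 and, for plots, matplotlib 3.10.9.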

Additional observations from a re-analysis of the deposited data

How the results depend on the processing

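No paired analysis was possible because the 2 arrays are 1 per condition, which also leaves no replicate to omit. Median centring lowers every log2 ratio by 0.11. The median of the antisense genes (0.17) became 0.058 with it, 0.031 with quantile normalization, 0.040 with loess and -0.019 with the 75th percentile filter. The median of the sense genes (-0.06) became -0.17 with median centring and -0.26 with the 75th percentile filter (all genes -0.034 and -0.025). It was above 0 with no filter (0.032, all genes 0.12) and as a mean over probe sets (0.040, all genes 0.10). Pairs changed in opposite directions, 0 in the report, numbered 2 with median centring, 1 with loess and 32 with no filter. With no filter, 196 antisense genes were higher (24.7%, all genes 17.5%) and 97 lower (12.2%, all genes 10%). Of 704 sense genes, 120 were higher and 84 lower there, and 59 pairs changed in the same direction. With the 75th percentile filter 8 antisense genes were higher (10.5%, all genes 6.68%) and 6 lower (7.89%, all genes 5.41%). Of 52 sense genes, 2 were higher and 8 lower there, and 3 pairs changed in the same direction. The olfactory receptor filter gave 61 higher (17.3%, all genes 12.1%) and 27 lower antisense genes (7.65%, all genes 6.88%), and 31 higher of 273 sense genes. Use of suffix-free probe sets gave 11 higher of 141 sense genes (all genes 10.2%) and 9 pairs in the same direction. Of the 40 higher and 16 lower antisense genes, 35 and 16 were called with median centring and with loess, 34 and 16 with quantile normalization, 32 and 16 with the floor, 32 and 12 with the mean over probe sets, and 31 and 14 without shared probes. Of 30 named antisense genes past 2-fold, 22 kept the call in every alternative that gave a value. As a mean over probe sets ATXN1-AS1 (-0.53), OTUD6B-AS1 (-0.84), TRAF3IP2-AS1 (-0.56) and MELTF-AS1 (0.39, and 0.99 with quantile normalization) lost it, and with the floor FNDC1-AS1 (0.93), MCPH1-AS1 (0.95), PIK3CD-AS2 (0.70) and PPP1R14B-AS1 (0.75) did. Calls were gained by FGD5-AS1 with quantile normalization (1.03), loess (1.03) and the mean over probe sets (1.02), by HOXA11-AS with that mean (1.48) and by LHX4-AS1 with median centring (-1.02). MNX1-AS1 was lowest with the floor, at 1.62. Where a control signal is under background, the array gives only a bound for the fold.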

Other observations

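Antisense genes under the level numbered 512. Of these, 439 had no signal above background on either array, and 73 had at least 1 that was, and with IRX1::GFP 21 of these 73 were higher and 11 lower by 2-fold or more. Another 13 probe sets at or above the level carried an antisense symbol together with another symbol and were not assigned to a gene. None of the 13 differed 2-fold, and their log2 ratios ran from -0.89 to 0.72.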
